A study of Rattus norvegicus with 10 samples.

Results

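The matrix metalloproteinases measured in the rat abdominal aorta were the 10 genes Mmp2, Mmp3, Mmp7, Mmp9, Mmp11, Mmp12, Mmp13, Mmp14, Mmp23 and Mmp24, taken by gene symbol and read by 14 of 15866 probe sets on an Affymetrix array. A probe set is a group of short probes against the 3′ end of 1 transcript, and its value is an intensity, called the signal here. Aortae of inbred Brown Norway (BN) rats and of inbred LOU rats were compared, with 5 arrays for BN and 5 for LOU. No animal of either strain received a treatment, and the labels give both strains an age of 5 weeks, while the growth notes allow housing up to 18 weeks. The tissue label is abdominal aorta for every array, whereas the extraction notes name the thoracic segment too, and sex is not given. The study asked for the genetic basis of arterial traits of the BN rat. The labels do not tie each array to an animal of its own, so p-values measure only the spread between these arrays, which may be technical. Precision is limited by having 5 arrays a strain.

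Matrix metalloproteinases are zinc-dependent enzymes that cut collagens, elastin, proteoglycans and signalling proteins outside the cell. Most are secreted as inactive proenzymes and a few are anchored in the membrane. They are switched on by removal of a propeptide and held in check by the tissue inhibitors of metalloproteinases (TIMPs). In the artery wall they are known for their part in remodelling of the elastic layers and in aneurysm.

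The wall held signal from a minority of the family on every array. A probe set was counted as above background on an array when its signal exceeded the 95th percentile of the 45 controls for bacterial RNA on that array, a level of 21.2 to 49.2 over the arrays. By this rule Mmp2, Mmp14, Mmp23 and Mmp24 were above background on all 10 arrays, with each of their 7 probe sets. Mmp12 was above it on 9 arrays, Mmp3 on 5, Mmp11 on 4 and Mmp13 and Mmp9 on 1 each, and Mmp7 on none. Over all 15866 probe sets 63.0% were above background on all 10 arrays, and 10.1% on none. Of the 14 family probe sets, 7 were above it on all arrays and 2 on none. The highest control in place of the 95th percentile left 4 on all arrays and put 5 on none. An array signal below background sets no lower limit on the transcript, so such a gene is given below as not above background and not as absent.

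The tissue label was checked against cell type markers. All 9 measured smooth muscle genes were above background on all arrays, as were 9 of 9 endothelial, 12 of 13 adventitial fibroblast, 11 of 12 macrophage, 7 of 8 adipocyte and 4 of 10 skeletal muscle markers. In such mixed tissue, fewer cells of a type and less RNA per cell cannot be told apart. Array medians ran from 97.4 to 105.

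Of the 6 members that were not above background on every array, 4 are neighbours in the genome. Mmp13, Mmp12, Mmp3 and Mmp7 are members of a run of 10 neighbouring protein-coding genes on rat chromosome 8 that are all matrix metalloproteinases in RefSeq's GRCr8 annotation, in the order Mmp13, Mmp12, Mmp1b, Mmp3, Mmp1, Mmp10, Mmp8, Mmp27, Mmp20 and Mmp7. The other members lie on chromosomes 3 (Mmp9 and Mmp24), 5 (Mmp23), 15 (Mmp14), 19 (Mmp2) and 20 (Mmp11). None of the 4 clustered members was above background on all arrays. Mmp10 and Mmp8, which lie in the same run and are also on the array, were above it on 0 and 3 of 10 arrays.

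Promoter sequences from RefSeq (GRCr8) were at hand for 7 of the 10 members, all but Mmp2, Mmp9 and Mmp14, and are shown because the clustered genes and the others differ in them. The 120 bases that end just before the annotated transcript start are given 5′ to 3′ on the gene's own strand. In the clustered genes, capitals mark a match to the AP-1 element TGAGTCA, the site bound by Jun and Fos proteins, or its reverse complement TGACTCA, and to the TATA box TATAAA.
Mmp13 (chr8:12782709-12782828, plus strand): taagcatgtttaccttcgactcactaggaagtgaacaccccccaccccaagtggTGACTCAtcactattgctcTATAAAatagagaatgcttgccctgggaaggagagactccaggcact
Mmp12 (chr8:12866532-12866651, plus strand): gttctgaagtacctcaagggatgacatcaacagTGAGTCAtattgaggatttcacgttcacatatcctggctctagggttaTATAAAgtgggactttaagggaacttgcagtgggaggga
Mmp3 (chr8:12925161-12925280, plus strand): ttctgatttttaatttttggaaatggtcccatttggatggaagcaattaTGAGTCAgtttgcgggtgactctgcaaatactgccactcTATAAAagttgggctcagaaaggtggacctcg
Mmp7 (chr8:13132923-13133042, plus strand): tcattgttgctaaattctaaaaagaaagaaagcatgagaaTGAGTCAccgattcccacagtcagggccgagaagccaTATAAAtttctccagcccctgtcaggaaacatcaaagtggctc
In Mmp11, Mmp23 and Mmp24, capitals mark the GC box GGGCGG, the element bound by Sp1-type factors, or its reverse complement CCGCCC.
Mmp11 (chr20:12730164-12730283, plus strand): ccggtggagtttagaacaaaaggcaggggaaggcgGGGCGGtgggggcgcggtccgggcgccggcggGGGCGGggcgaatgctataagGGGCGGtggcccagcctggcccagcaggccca
Mmp23 (chr5:171524535-171524654, minus strand): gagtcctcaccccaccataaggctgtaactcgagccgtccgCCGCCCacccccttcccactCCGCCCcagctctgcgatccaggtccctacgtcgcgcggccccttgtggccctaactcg
Mmp24 (chr3:164739106-164739225, plus strand): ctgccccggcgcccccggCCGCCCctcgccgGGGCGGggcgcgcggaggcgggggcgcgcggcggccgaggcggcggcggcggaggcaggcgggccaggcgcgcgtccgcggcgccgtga
Each window of 300 bases, 250 before and 50 after the start, was searched on both strands for the AP-1 element, the TATA box (reverse complement TTTATA) and the GC box, and no matches in these genes overlapped. All 4 clustered members held both an AP-1 element and a TATA box, and none a GC box. The AP-1 element began 66 bases before the start in Mmp13, 87 in Mmp12, 71 in Mmp3 and 80 in Mmp7, and the TATA box nearest the start lay 47, 39, 32 and 43 bases before it. Mmp11, Mmp23 and Mmp24 held 4, 2 and 5 GC boxes and no match to the other motifs. Of 33469 windows in the RefSeq table, 4.63% held the AP-1 element, 14.2% the TATA box, 33.1% the GC box and 0.762% both of the first pair. A match is a description of letters and does not show binding. The windows follow the annotated start of the BN reference assembly, and LOU sequence was not analysed here.

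**Figure D1:**
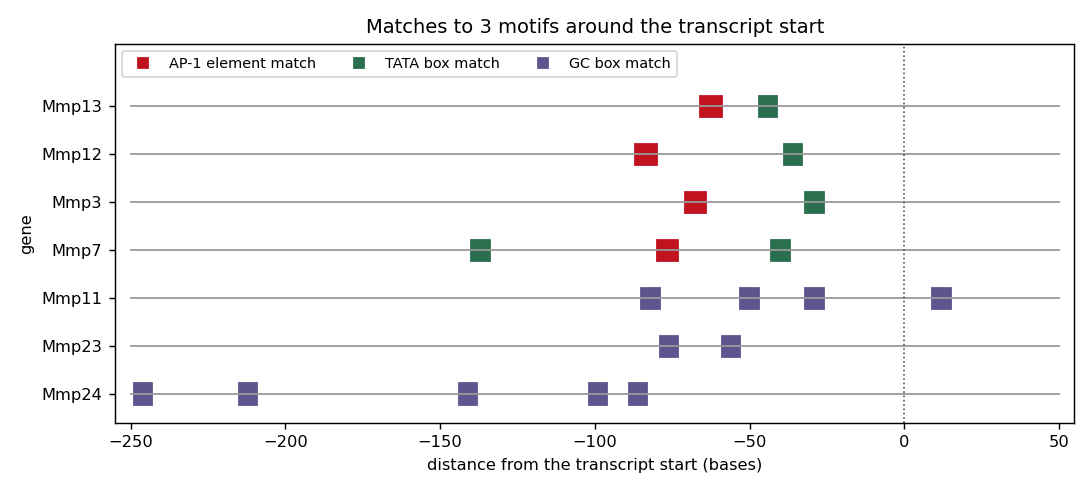
Matches to the AP-1 element, TATA box and GC box in 7 promoters, by distance from the transcript start in bases, 1 row a gene. The 4 genes of the chromosome 8 run show an AP-1 match 66 to 87 bases before the start with a TATA match nearer to it, and Mmp11, Mmp23 and Mmp24 show GC boxes.

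The comparison of BN with LOU asked whether the family differs between the strains. By limma, with p adjusted over all 15866 probe sets, 0 of the 14 family probe sets reached an adjusted p under 0.05, against 0.788% of all probe sets (0.246% higher and 0.542% lower in BN). At an unadjusted p of 0.05, 3 of 14 passed, 1 higher in BN (Mmp24) and 2 lower (Mmp2 and Mmp9), against 13.3% of all probe sets (5.16% higher and 8.09% lower). The median log2 difference (BN minus LOU) of the 14 was −0.02, beside −0.03 over all probe sets, and 6 were positive and 8 negative. In 1 of the 14, an Mmp9 probe set, the strains had no overlap, with all BN arrays lower, as they had in 4.18% of all probe sets (2.77% with BN lower).

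**Figure D2:**
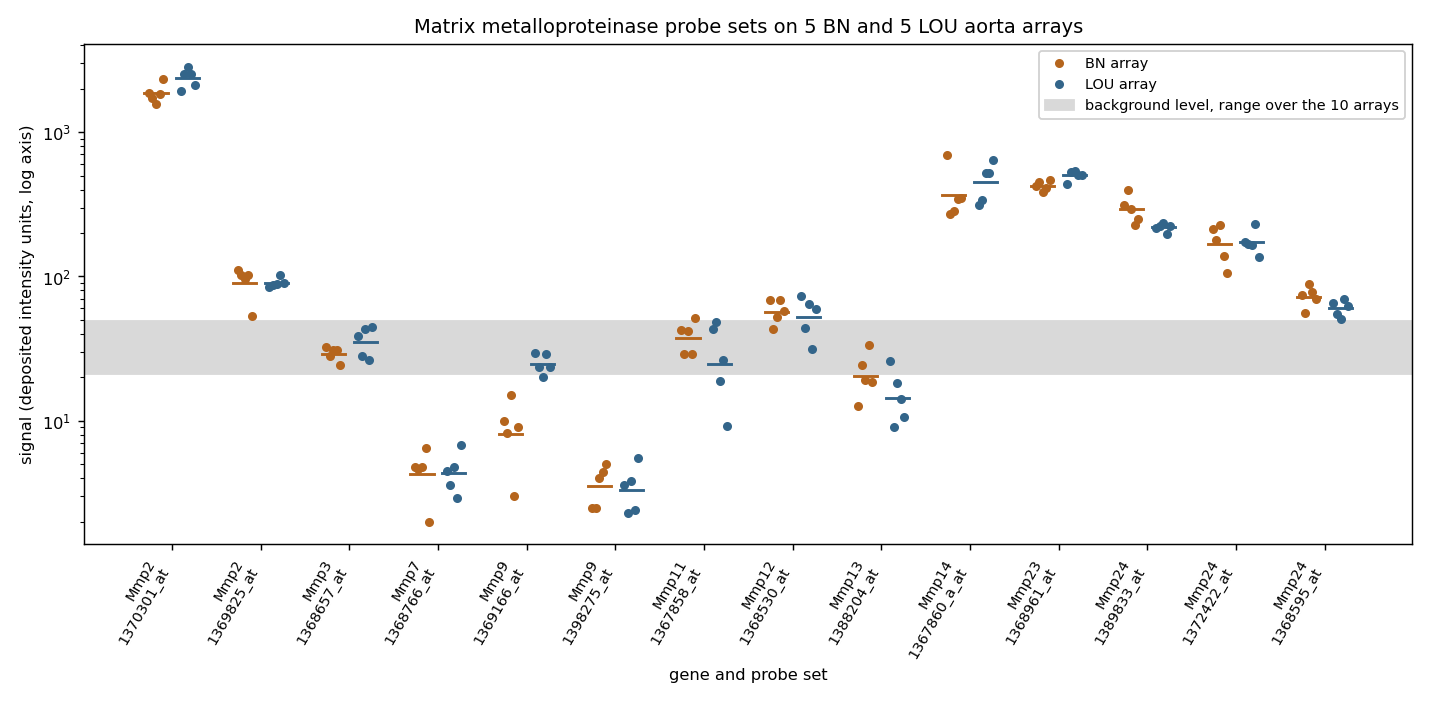
Signal of each of the 14 probe sets on 5 BN and 5 LOU arrays (log axis, intensity units). Points are arrays, bars are means of log2 signal, and the grey band is the range of the background level over the arrays, 21.2 to 49.2. Only in Mmp9 1369166_at do the strains not overlap, and that probe set lies within or below the band.

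The gelatinase Mmp2, which digests denatured collagen and basement membrane collagen, was read by 2 probe sets that did not behave alike. In the brighter, 1370301_at, the signals were 1878.9, 1731.7, 1565.4, 1851.9 and 2337.4 on BN arrays 1 to 5, against 1941.7, 2515.1, 2839.2, 2529.8 and 2123.4 on LOU arrays 1 to 5. BN array 5 exceeded LOU arrays 1 and 5, so the strains overlapped. The means were 1873 ± 288 in BN and 2390 ± 357 in LOU (SD, n = 5 arrays each), a log2 difference of −0.35 with a 95% interval of −0.69 to −0.02, which did not pass (limma adjusted p = 0.356). With the mean of both probe sets it was −0.18. In the dimmer, 1369825_at, the signals were 110.2, 101.6, 96.0, 102.3 and 53.3 in BN, against 83.9, 87.8, 88.5, 101.9 and 89.4 in LOU. Here 4 BN arrays lay within or above the LOU range and BN array 5 alone lay below it. The log2 difference was −0.004 (interval −0.44 to 0.43, adjusted p = 0.996), and 0.18 without BN array 5. BN array 5 was also the lowest in adipocyte markers, 8 genes with Lep not above background on any array. They summed to 4189 there, to 11357 to 28906 on the other BN arrays and to 5297 to 25829 in LOU. LOU arrays 4 and 3, the next lowest at 5297 and 5468, had 101.9 and 88.5 in this probe set. On the log2 scale centred for each gene, BN array 5 was also the highest array in smooth muscle markers (0.43). It was the lowest in macrophage markers (−0.28). The part of these lists in this signal was not tested. Across the 10 arrays, with strain means removed, the log2 signals of the 2 probe sets correlated with r = −0.46 (Spearman −0.12), a description with no test.

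Mmp14, the membrane-type enzyme that activates pro-Mmp2 at the cell surface, overlapped widely between the strains. Its signals were 697.9, 270.8, 285.8, 345.8 and 349.2 in BN, against 311.4, 336.2, 520.5, 519.5 and 643.8 in LOU. BN array 1 was the highest of all, and LOU arrays 3, 4 and 5 exceeded LOU arrays 1 and 2. The means were 390 ± 176 in BN and 466 ± 140 in LOU (SD, n = 5 each), a log2 difference of −0.30 (interval −0.95 to 0.36, adjusted p = 0.706). Without BN array 1 the difference was −0.53 and did not pass either (adjusted p = 0.405), and it was −0.19 without BN array 2 and −0.17 without LOU array 5 (adjusted p within 0.405 to 0.874 over all alternatives).

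LOU arrays 3, 4 and 5, which ran high in Mmp14, also ran high in some, though not all, of the 7 measured genes of the AP-1 factor. BN array 1, the highest of all in Mmp14, lay below those arrays in the brightest probe sets of Jun and Fos. In Jun it was near BN array 2, the lowest of all in Mmp14, and in Fos it lay below LOU array 1. Jun, chosen with Fos after their values were seen, had signals of 518, 494.2, 223.3, 213 and 384.9 in BN, against 432.4, 440.4, 1426.2, 1995.9 and 1205.7 in LOU in its brightest probe set. Fos, which like Jun responds within minutes to stimulation, had 102.9, 41.4, 25.1, 43.1 and 31.9 in BN, against 200.2, 57.0, 2023.3, 2692.7 and 767.4 in LOU in the brighter of its 2 probe sets. LOU arrays 3, 4 and 5 stood above every other array in these probe sets, in the other 2 of Jun and in Junb and Fosb, and above every other array but BN array 1 in Mmp14. They did not in the dimmer Fos probe set, with 15.9, 16.4, 48.5, 14.5 and 22.3 in BN, against 13.1, 52.8, 16.4, 54.8 and 13 in LOU, nor in Fosl1, Fosl2 or either probe set of Jund. Neither gene passed the test (log2 difference −1.42 for Jun and −3.66 for Fos in the brightest probe sets, adjusted p = 0.233 and 0.144), though Fos passed without LOU array 2, at −4.48 (adjusted p = 0.0455). The part of Jun and Fos in the Mmp14 signal was not tested, and no Mmp14 promoter was at hand. In none of the 4 clustered members with an AP-1 element did LOU arrays 3, 4 and 5 all stand above LOU arrays 1 and 2. LOU array 4 had 31.4 in Mmp12, 14.1 in Mmp13, 26.3 in Mmp3 and 2.9 in Mmp7. On LOU array 1 these were 73.6, 26.0, 38.8 and 4.5. Of the 4, only Mmp12 was above background on most arrays.

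**Figure D3:**
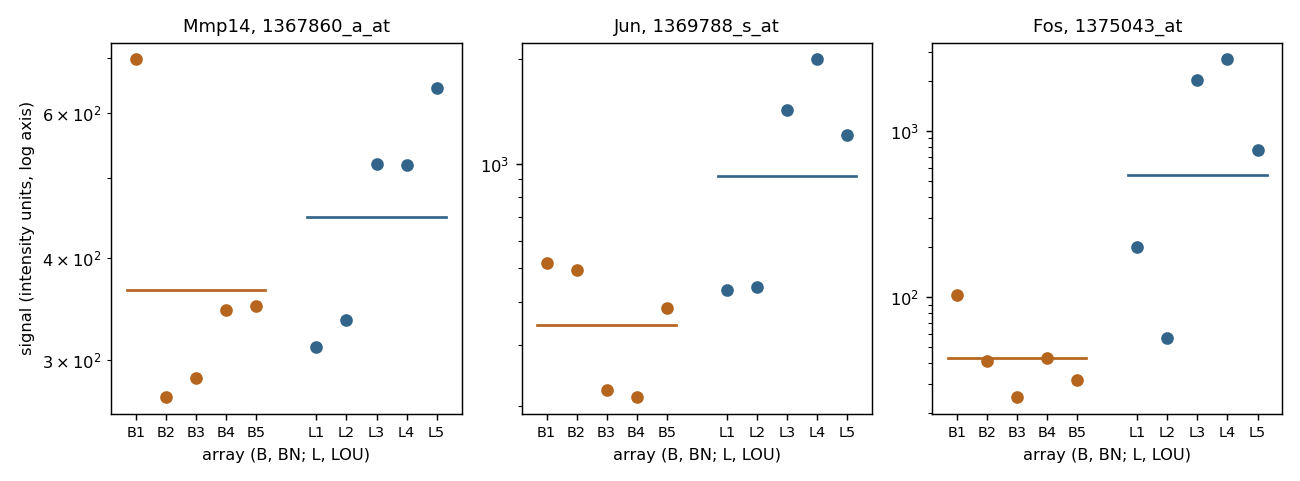
Signals of Mmp14 and of the brightest probe sets of Jun and Fos on each array (log axes, intensity units), BN arrays B1 to B5 left of LOU arrays L1 to L5, with bars at the mean log2 signal. L3, L4 and L5 are the highest LOU arrays in each panel, and B1 is the highest BN array in each.

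Mmp23, a membrane-anchored member that is released by cleavage, varied little between arrays of a strain. Its signals were 423, 452.9, 383.2, 407.6 and 468.1 in BN, against 435.1, 528.4, 541, 507.4 and 502.2 in LOU. LOU array 1 lay inside the BN range and the other 4 LOU arrays lay above it. The means were 427 ± 34.2 in BN and 503 ± 41.0 in LOU (SD, n = 5 each), with a log2 difference of −0.24 (interval −0.48 to 0.01, adjusted p = 0.403). Without LOU array 1 the strains no longer overlapped, the difference was −0.29, and it still did not pass (adjusted p = 0.288, within 0.189 to 0.593 over all alternatives).

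Mmp23 and the brighter Mmp2 probe set varied together within the strains, and the dimmer Mmp2 probe set did not follow Mmp23. With strain means removed, the log2 signals of Mmp23 and of the brighter Mmp2 probe set gave r = 0.82 (Spearman 0.81) over the 10 arrays, and 0.75 without the 2 arrays farthest from the Mmp2 median. It was the highest of 21 pairs of family probe sets above background on all arrays, so it is given as a description, and all probe sets of an array share its RNA and scaling. The dimmer Mmp2 probe set and Mmp23 gave r = −0.33 (Spearman −0.31), and 0.16 without the 2 arrays farthest from the median of that Mmp2 probe set. In Mmp23 and the brighter Mmp2 probe set, LOU array 1 was the lowest LOU array and BN array 3 the lowest BN array. LOU array 1 also had the lowest smooth muscle list mean of the 10 arrays, −0.39 on the log2 scale centred for each gene. That list of 9 genes summed to 46915 to 68477 in BN and to 42168 to 58489 in LOU.

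**Figure D4:**
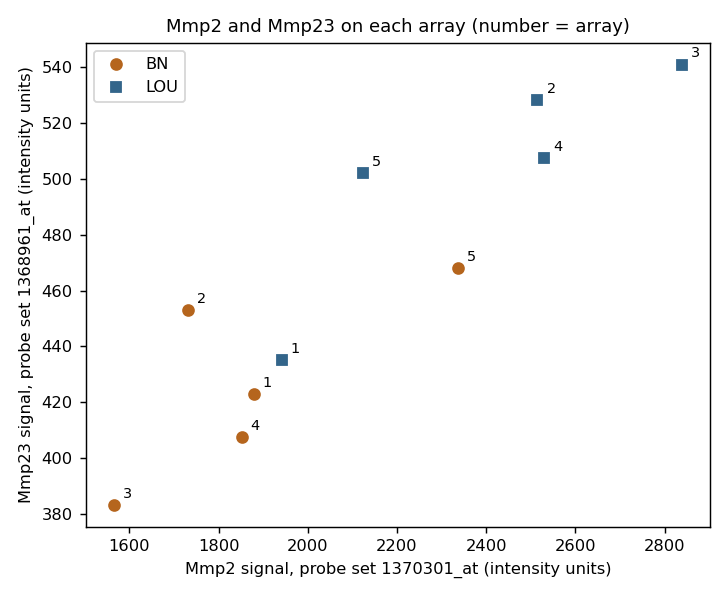
Mmp23 signal against Mmp2 signal (probe set 1370301_at) on each array, in intensity units, with the array number beside each point. LOU arrays 2 to 5 have the 4 highest Mmp23 signals, and LOU array 1 lies among the BN arrays.

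Mmp24, a membrane-type enzyme best known from the nervous system, was read by 3 probe sets that disagreed. In 1389833_at the signals were 314.9, 399.3, 293.6, 227.5 and 250.5 in BN, against 216.8, 225.0, 234.3, 195.6 and 224.5 in LOU. Of the BN arrays 4 lay above every LOU array, and BN array 4 lay inside the LOU range. The means were 297 ± 66.7 in BN and 219 ± 14.6 in LOU (SD, n = 5 each), a log2 difference of 0.41 (interval 0.06 to 0.77, adjusted p = 0.298), the only family difference that was positive at an unadjusted p under 0.05. With the mean of the 3 probe sets it was 0.21. The probe set 1368595_at had 73.8, 56.0, 88.5, 77.7 and 69.9 in BN, against 65.8, 55.1, 51.1, 69.9 and 62.3 in LOU (log2 difference 0.26, interval −0.08 to 0.60, adjusted p = 0.501). For 1372422_at the means were 173 ± 50.9 in BN and 175 ± 34.9 in LOU (log2 difference −0.04, interval −0.55 to 0.47, adjusted p = 0.959), a sign that turned with median centring. With strain means removed, 1389833_at and 1368595_at correlated with r = −0.62 (Spearman −0.61), and −0.31 without the 2 arrays farthest from the 1389833_at median. The probe set 1372422_at gave r = 0.33 with 1389833_at and 0.32 with 1368595_at. No pair of the 3 was strongly positive, a description with no test. Schwann cell markers did not overlap between strains as a list, with centred means of −0.02 to 0.95 in BN and −0.56 to −0.24 in LOU. These 8 genes, 6 of them above background on all arrays and none at background on every array, summed to 3009 to 6163 in BN and to 2503 to 3289 in LOU. Of their 11 probe sets 1, for Mbp, passed the test, higher in BN, as did 0.246% of all probe sets. Skeletal muscle markers did not overlap by list mean either, with −0.02 to 0.51 in BN and −0.62 to −0.08 in LOU. These 10 genes summed to 3259 to 5953 in BN and to 2070 to 3353 in LOU, with Myh4 and Pvalb not above background on any array. Of their 14 probe sets 2, both for Myh1, passed, higher in BN, against the same 0.246% of all probe sets. The part of either list in the Mmp24 signal was not tested.

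Mmp9, the gelatinase of neutrophils and macrophages, gave the lowest p of the family, in signals at or below background on all but 1 array. In 1369166_at the signals were 10.0, 8.2, 15, 3.0 and 9.1 in BN, against 29.5, 23.7, 20.1, 29.2 and 23.4 in LOU. Every BN array lay below every LOU array, yet no BN array and only LOU array 1 exceeded its background level, so no fold is given. The measured means were 9.06 ± 4.29 in BN and 25.2 ± 4.06 in LOU (SD, n = 5 each), with a limma adjusted p of 0.0866 (0.00118 unadjusted). The adjusted p was 0.0376 without BN array 4 and 0.0286 with a pseudocount of 16, within 0.0286 to 0.243 over all its alternatives. The second probe set, 1398275_at, was not above background on any array, with signals of 2.5 to 5.0 in BN and 2.3 to 5.5 in LOU. Of the 3 measured neutrophil genes, S100a8 and S100a9 were not above background on any array and Cxcr2 was above it on 1 BN and 3 LOU arrays. The list summed to 25.9 to 61.3 in BN and to 29.1 to 60.9 in LOU, and its part in the Mmp9 signal was not tested.

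Mmp12, the macrophage elastase that degrades elastin, was the clustered gene most often above background. Its signals were 68.3, 43.0, 52.1, 69.0 and 57.4 in BN, against 73.6, 43.8, 64.6, 31.4 and 59.3 in LOU. The strains overlapped almost fully, and LOU array 4 alone was not above background. The means were 58.0 ± 11 in BN and 54.5 ± 16.9 in LOU (SD, n = 5 each), a log2 difference of 0.13 (interval −0.41 to 0.67, adjusted p = 0.857) that turned to −0.055 without LOU array 4. LOU array 1, the highest in Mmp12, was also the highest in macrophage markers, with a centred list mean of 0.77 against −0.28 to 0.05 in BN and −0.19 to 0.03 on the other LOU arrays. These 12 genes summed to 1281 to 1682 in BN and to 1351 to 3425 in LOU, with Itgam not above background on any array, and their part in the Mmp12 signal was not tested.

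The remaining members lay near or under the background level. Mmp3, a stromelysin that also activates other proenzymes, had 32.5, 28.0, 30.7, 31.1 and 24.3 in BN, against 38.8, 28.0, 43.3, 26.3 and 44.7 in LOU, above background on 2 BN and 3 LOU arrays. Its log2 difference was −0.28 (interval −0.68 to 0.12, adjusted p = 0.556), and the LOU arrays spread over a wider range that held most BN values. Mmp11, a stromelysin that furin activates inside the cell, had 42.4, 29.2, 41.6, 28.8 and 51.2 in BN, against 43.0, 48.6, 18.9, 26.3 and 9.2 in LOU, above background on 2 arrays of each strain. Its log2 difference of 0.60 had an interval of −0.34 to 1.54 (adjusted p = 0.589). LOU arrays 3, 4 and 5 lay below every BN array, with LOU array 5 the lowest. The difference was 0.24 without LOU array 5 and 0.087 with a floor of 32. Mmp13, a collagenase of cartilage and bone, had 12.6, 24.2, 19.2, 33.4 and 18.6 in BN, against 26.0, 9.0, 18.3, 14.1 and 10.6 in LOU, with BN array 4 alone above background. It did not pass (adjusted p = 0.562), and no fold is given. Mmp7, the matrilysin of epithelia, had signals of 2.0 to 6.5 in BN and 2.9 to 6.8 in LOU, none above background.

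**Figure D5:**
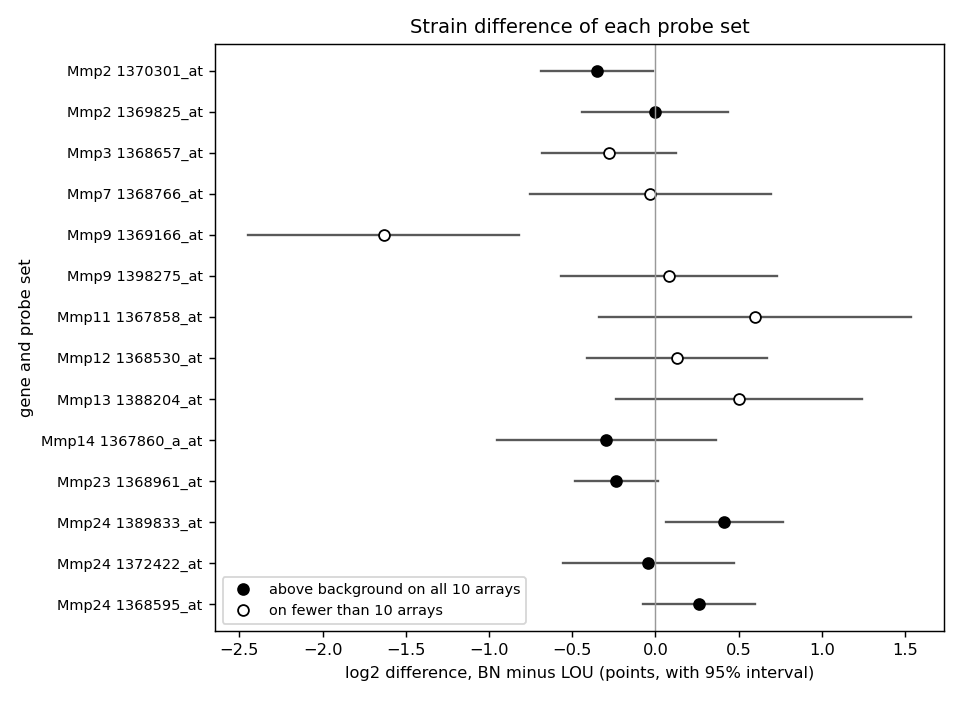
Log2 difference (BN minus LOU) of each family probe set with its 95% interval from limma. Filled points are the 7 probe sets above background on all 10 arrays. Open points lie at or near background on some or all arrays, and those of Mmp7, Mmp9 and Mmp13 measure no fold. Intervals exclude 0 for Mmp2 1370301_at, Mmp9 1369166_at and Mmp24 1389833_at, none of which passed after adjustment.

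For the probe sets above background on all arrays, the genes with the most similar pattern were sought among 7369 named genes, by Pearson r of log2 signal over the 10 arrays with strain means removed. They are descriptions, since the highest of so many values are high by selection. Nearest to the brighter Mmp2 probe set were Mfap2, an elastic microfibril protein (r = 0.97), Fkbp9, a prolyl isomerase of the endoplasmic reticulum (0.97), and the adherens junction gene Ctnna1 (0.97), with Spearman values of 0.95, 0.95 and 0.99. Nearest to Mmp23 were the dipeptidase Dpep1 (0.98), the secretory pathway isomerase Ppib (0.94) and the Golgi protein Gorasp2 (0.94). Among the 3 genes nearest to Mmp14 were Hdgfl1 (0.92) and the lipid-binding protein Sec14l2 (0.90), and the value for Sec14l2 was 0.70 without BN array 1 and LOU array 5. The 3 Mmp24 probe sets shared none of their nearest genes, which were Ei24, Glmp and Nfkbia for 1389833_at, Rundc3a, Klhl8 and Amph for 1372422_at and Strbp, Mta2 and Acad9 for 1368595_at (r from 0.89 to 0.93). The dimmer Mmp2 probe set had B3gat3, Akr1c13 and Pde6h (0.95, 0.94 and 0.91), with values of 0.74, 0.64 and 0.68 without BN arrays 1 and 5.

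The inhibitors that hold these enzymes in check did not pass the test either. The inhibitor list, 14 probe sets for 9 measured genes, also holds Sparc (−0.08 and −0.23) and Pcolce (−0.26), matrix proteins rather than inhibitors. Of the 14 probe sets 0 passed, and the median log2 difference was −0.20. At an unadjusted p of 0.05, 2 were lower and 0 higher in BN, against 8.09% and 5.16% of all probe sets. Timp1 had signals of 508.3, 522.7, 511.1, 467.2 and 614.6 in BN, against 510.3, 898.2, 831.9, 776.7 and 588.1 in LOU. LOU arrays 2, 3 and 4 lay above every BN array, and the log2 difference was −0.43 (interval −0.82 to −0.04, adjusted p = 0.322). Reck, a membrane-anchored inhibitor of several family members, had 431.2, 586.7, 676.5, 559.6 and 772.1 in BN, against 600.3, 910.4, 764.5, 878.6 and 959.7 in LOU (log2 difference −0.45, interval −0.87 to −0.03, adjusted p = 0.340). LOU array 1 was again the lowest LOU array in both. Timp2, which also takes part in Mmp2 activation by Mmp14, differed by −0.16 in its brighter probe set, with means of 1982 ± 209 in BN and 2233 ± 349 in LOU (SD, n = 5 each, adjusted p = 0.650), and by −0.39 in the other. Timp3, the inhibitor bound to the matrix, had 4 probe sets at 0.17, 0.01, −0.76 and 0.17, none past the test. Timp4 was not analysed here.

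The list of activators and inducers, with 22 probe sets, also holds Lrp1 and Cav1, which are neither. Of the 22 probe sets 0 passed, and the median log2 difference was 0.07. At an unadjusted p of 0.05, 2 were higher and 3 lower in BN, against 5.16% and 8.09% of all probe sets. Lrp1 is 1 of the 3 lower. Furin, the convertase that removes the propeptide of Mmp11, Mmp14, Mmp23 and Mmp24, had 324.8, 367.7, 287.0, 271.4 and 232.8 in BN, against 201.8, 215.9, 188.5, 182.2 and 212.4 in LOU. Every BN array exceeded every LOU array, a log2 difference of 0.55 (interval 0.24 to 0.87) that did not pass over all probe sets (adjusted p = 0.122). Bsg, the membrane protein known as an inducer of metalloproteinases, differed by 0.38 (interval −0.004 to 0.77, adjusted p = 0.383) and Plat, a plasminogen activator, by 0.24 (adjusted p = 0.522). Lrp1, an endocytic receptor chosen after its values were seen, had 670.7, 588.8, 540.7, 675.0 and 661.6 in BN, against 685.0, 780.8, 1159.8, 942.2 and 928.3 in LOU. Every BN array lay below every LOU array there, a log2 difference of −0.50 (adjusted p = 0.196). The 4 probe sets of other family genes on the array, for Mmp8, Mmp10, Mmp16 and Mmp17, gave 0.68, 0.14, 0.22 and 0.07, and none passed. Mmp16 and Mmp17, both membrane-anchored, were above background on all 10 arrays.

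Of 27 probe sets for transcription regulators, 1 passed and was higher in BN, against 0.246% of all probe sets. At an unadjusted p of 0.05, 1 was higher and 9 lower in BN, against 5.16% and 8.09% of all probe sets, and the median log2 difference was −0.19. The 9 included every Jun probe set, the brighter of Fos, and those of Junb and Fosb, so they are not 9 separate genes. The probe set that passed was 1387762_s_at of Jund, with 148.3, 69.6, 17.4, 26.1 and 30.2 in BN, against 2.6, 2.8, 5.7, 5.0 and 3.6 in LOU (adjusted p = 0.0171). Of these, 3 BN arrays and no LOU array were above background, and no fold is given. The other Jund probe set differed by −0.55 (adjusted p = 0.686). The call was lost without BN array 2 or LOU array 2, with the replicate block, with a floor of 32 and with a pseudocount of 16, and the probe set was left out with dim probe sets left out.

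The list of cytokines that induce the family also holds the receptors Il1r1, Tnfrsf1a and Tnfrsf1b and the receptor antagonist Il1rn. This list, matrix substrates and related proteases had 0 of 18, 0 of 35 and 0 of 10 probe sets past the test. Their medians were −0.23, −0.14 and −0.22. At an unadjusted p of 0.05 these lists had 1, 7 and 1 lower in BN and 0, 3 and 0 higher, against 8.09% lower and 5.16% higher over all probe sets. The 7 include Vcan probe sets at −0.88, −0.82, −0.75 and −0.55, so they are not 7 separate genes. The remaining Vcan probe set, not above background on any array, differed by −0.24. Tgfb1, a Nid1 probe set and a Vcan probe set, chosen after their values were seen, came nearest, at −0.59, −0.67 and −0.88 (limma adjusted p = 0.0730, 0.0564 and 0.0866). The other Nid1 probe set, also above background on all arrays, differed by −0.14 (adjusted p = 0.837). Adventitial fibroblast markers, cells that also make Mmp2, Timp1 and Reck, had centred list means of −0.50 to −0.08 in BN and 0.01 to 0.60 in LOU. These 13 genes summed to 16128 to 21602 in BN and to 22738 to 33334 in LOU, and none was at background on every array. Of their 18 probe sets 2, both for Ogn, passed the test, lower in BN, against 0.542% of all probe sets. Their part in the Mmp2, Timp1 and Reck signals was not tested.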

How the data were processed

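Each deposited value is the array intensity of 1 probe set, linear in scale, from 0 to 22219.9, and the 2% trimmed mean was 200.05 to 200.06 on every array. RMA is named, with no version, in the submitters' processing notes. RMA gives log2 values, so these were taken as linear and scaled to a common mean. Since the design had been written for log2 values, log2 was taken of each signal, with the 4 values of 0 set to 0.1.

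Strain was read from the title of each array. Differences, BN minus LOU, were fitted in limma 3.58.1 under R 4.3.3, with strain as the only term, by lmFit and eBayes (two-sided). The 57 control probe sets took no part, and p was adjusted by Benjamini-Hochberg over the 15866 others, with a threshold of 0.05. Symbols come from the platform annotation, updated through gene identifiers in RefSeq's GRCr8 table (12783 probe sets had 1 symbol, 312 several and 2771 none). Marker list means use the brightest probe set of each gene. The members and lists were chosen with earlier results of these data known. Every member was described whatever its value, as were 8 fixed partner genes, of which 7 were measured, and other genes of the partner lists past the test. Alternatives were other scalings, treatments of dim signals, a variance trend, array weights, the replicate block, 1 value per gene and each array left out. Same-numbered arrays of the strains deviated with correlations of −0.05 to 0.01, so no pairing by number was seen, though such values cannot exclude one. Of the genes with a similar pattern, 1 is not reported here. The test was tried on simulated arrays. Python 3.11.15 with pandas 2.3.3, numpy 2.4.6 and matplotlib 3.10.9 made summaries and plots.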

Additional observations from a re-analysis of the deposited data

Results flagged for a closer look

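In groups of 5 arrays, the highest or lowest log2 signal was set against the rest by its gap to the nearest array as a share of the group's range (Dixon's test). Of 28 groups, 2 held an array past the 95% critical value of 0.71, and chance gives about 1 in 20. BN array 5 stood low in Mmp2 1369825_at, with a signal of 53.3 and a gap of 0.81 of the range. BN array 1 stood high in Mmp14, with a signal of 697.9 and a gap of 0.731 of the range.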

How the results depend on the processing

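All 7 detected probe sets stayed on the same side of the threshold under every alternative run, and of the 14 only Mmp9 1369166_at crossed it (1 probe set with a pseudocount of 16, and 0 to 1 when an array was left out). Over all probe sets, 39 were higher and 86 lower in BN. These counts became 78 and 175 with the dimmest 40% left out, 81 and 161 with a variance trend, and 60 and 144 with a pseudocount of 16. The higher count was 60 with a floor of 32 and 16 without BN array 3 and LOU array 1, a pair chosen after seeing the data. Leaving out each array gave 17 to 36 higher and 45 to 91 lower. Among partner lists, 1 higher (Jund) became 0 with the dimmest left out, a floor of 32 or a pseudocount of 16, and 0 to 1 without an array. The 0 lower became 3 with the dimmest left out (Tgfb1, Nid1 and Vcan) or a variance trend, 2 with a floor of 32 or a pseudocount of 16, 1 with array weights (Nid1), and 0 to 1 without an array. With the replicate number as a block, though no pairing by number was seen, 10 were higher and 13 lower, 0 of them in the family or the partner lists. With the highest bacterial control as background, 4 family probe sets were above it on all arrays and 5 on none. Sign turned where differences were near 0: Mmp2 1369825_at was 0.047, 0.055, 0.040 and 0.0034 with median centring, quantile normalization, array weights and a pseudocount, and −0.077 to 0.18 without an array. Mmp7 was 0.020, 0.010, 0.018 and 0.00065 under these, and −0.18 to 0.24 without an array. Mmp24 1372422_at was 0.0086 with median centring and 0.0078 with quantile normalization, and −0.16 to 0.12 without an array. Without an array, Mmp9 1398275_at ranged from −0.053 to 0.26 and Mmp12 from −0.055 to 0.25. A floor of 32 gave no value for 3 probe sets, whose signals all lay under it. The causes were not tested. Signal near background limits Mmp3, Mmp7, Mmp9, Mmp11, Mmp13 and, on 1 array, Mmp12.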
